A study of Apis cerana with 9 samples.

Results

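The molecular chaperone genes of the Hsp70, Hsp90, DnaJ and chaperonin families were described in the proboscis of *A. cerana* from RNA-seq counts. Members were the genes of the deposited table whose description held the words heat shock, hsp70, hsp90, dnaJ, T-complex protein 1, chaperonin, endoplasmin or BAG family, leaving out heat shock factors, alpha-crystallins, the lethal(2)essential for life genes and LOC107996590. These words matched 58 rows, of which 5 were left out, so that 53 of the 12757 genes in the table were members. By description they comprised 5 Hsp70 genes, 4 Hsp90 genes, 2 genes of the mitochondrial chaperonin, 8 genes of the cytosolic chaperonin CCT, 5 co-chaperones, 25 DnaJ genes and 4 genes that only shared a word with the rule. The 9 libraries came from proboscises of bees that carried rapeseed pollen (rapeseed, 3 libraries), bees that carried pear pollen (pear, 3 libraries) and bees that carried no pollen (non-pollen, 3 libraries). The labels give no genotype, age, collection day, handling or sequencing batch for any group. Whether the 3 libraries of a group stand for separate bees, pools or colonies is not stated. The p-values therefore reflect the spread among these libraries only, and that spread may be technical.

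Hsp70 proteins bind unfolded stretches of other proteins and release them in a cycle driven by ATP. DnaJ proteins bring clients to Hsp70 and start the hydrolysis of ATP, and exchange factors let the cycle begin again. Hsp90 proteins act later on partly folded clients such as kinases and receptors, whereas chaperonins are rings that enclose a client: Hsp60 with its lid Hsp10 in mitochondria, and CCT, which folds actin and tubulin, in the cytosol. The cytosol, the endoplasmic reticulum (ER) and the mitochondrion each have their own Hsp70 and Hsp90, and the results below follow these compartments.

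Total counts were 49085060 to 53518340 in the rapeseed libraries, 45447582 to 46167296 in the pear libraries and 43034759 to 64306245 in the non-pollen libraries. Marker genes of the hypopharyngeal gland, a head gland that makes royal jelly, took 0.773 to 0.816% of the counts in the rapeseed libraries, 0.879 to 1.18% in the pear libraries and 37.1 to 37.6% in the non-pollen libraries. The 12 photoreceptor markers took 0.00741 to 0.00784% in rapeseed, 0.00778 to 0.00848% in pear and 0.0789 to 0.0856% in non-pollen, and the 26 muscle markers 8.2 to 8.24%, 8.4 to 8.67% and 3.94 to 4.02% in the same order. In that order the 19 neuron markers took 0.102 to 0.103%, 0.103 to 0.105% and 0.0816 to 0.083%. The 6 fat body markers took 0.114 to 0.116%, 0.118 to 0.122% and 0.104 to 0.111%. The 28 markers of cuticle-forming epidermis took 0.532 to 0.535%, 0.5 to 0.534% and 0.246 to 0.26%. The proboscis has no defining marker of its own in the lists used, so the labelled tissue was checked only against these other lists. Levels of a gene in different libraries are given as TMM-scaled CPM. CPM sets a gene's count against the size of its library, and TMM (trimmed mean of M values) scales the libraries so that most genes keep their level. Levels of different genes are given as the deposited FPKM, which is per gene length. The choice of scaling matters here: without TMM, on library totals alone, the median log2 fold change over all 9259 genes tested shifted to 0.53 for pear against non-pollen and 0.47 for rapeseed against non-pollen, but only to -0.05 for rapeseed against pear. With TMM and the test given below, of 18 tested neuron markers 3 were higher and 13 lower in rapeseed than in non-pollen. In pear 3 were higher and 15 lower, and 30% and 27.2% of all genes were lower in rapeseed and in pear. On library totals alone the neuron counts were 5 higher and 8 lower in rapeseed, and 5 and 7 in pear.

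Of the 53 members, 50 reached an FPKM of 1 in 3 or more libraries and were tested. In rapeseed against pear, 14 members were higher and 1 was lower at an adjusted p below 0.05 (edgeR's quasi-likelihood test, Benjamini-Hochberg over all genes tested), where 7.94% of all genes tested were called higher and 4.96% lower. In rapeseed against non-pollen, 21 members were higher and 12 lower, beside 29.3% and 30% of all genes. In pear against non-pollen, 21 members were higher and 11 lower, beside 28.5% and 27.2% of all genes. On library totals alone the split was 39 higher and 4 lower in rapeseed against non-pollen and 39 higher and 2 lower in pear against non-pollen, so that most calls of lower members against non-pollen depend on the scaling. The comparisons share libraries and are not independent of each other. The median log2 fold change over the 50 members was 0.01 in rapeseed against pear, 0.08 in rapeseed against non-pollen and 0.09 in pear against non-pollen, and over all genes it was -0.01, -0.02 and -0.01. With TMM scaling the members moved in both directions. Direction against non-pollen differed between classes, and also among genes of 1 compartment.

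When the same test asked for a change beyond 1.2-fold, 5 members were higher and 0 lower in rapeseed against pear, where 1.57% and 0.562% of all genes passed. The 5 were Hsc70-4, Hsc70-4-like, Hsp90, Hsp83 and the gene described as small heat shock protein. For the other 2 comparisons the counts were 11 higher and 6 lower in rapeseed against non-pollen (14.9% and 15.8% of all genes), and 2 higher and 9 lower in pear against non-pollen (12.6% and 14.5% of all genes). The 2 higher in pear were the heat shock protein ATPase activator and DnaJB6. A proboscis library is bulk RNA, in which fewer cells of a type and less RNA per cell cannot be told apart.

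**Figure D1:**
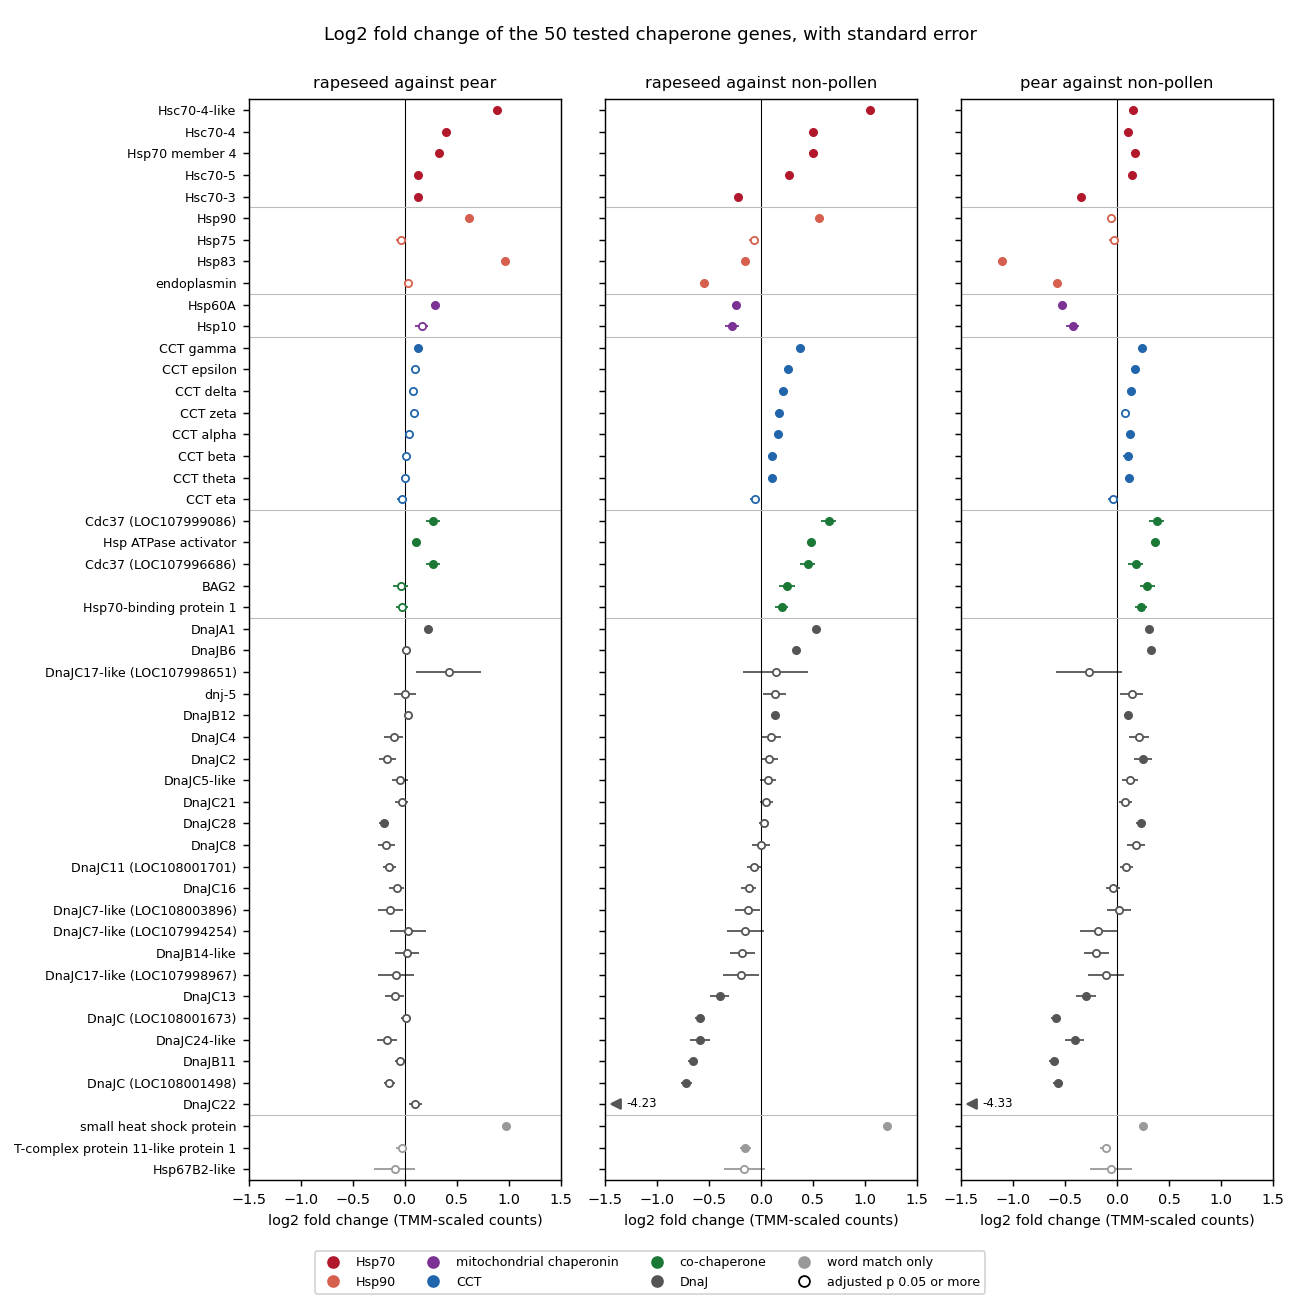
Log2 fold change with its standard error (x axis, TMM-scaled counts) of the 50 tested chaperone genes (rows, by class) in rapeseed against pear, rapeseed against non-pollen and pear against non-pollen; filled points had an adjusted p below 0.05. The Hsp70 genes and DnaJA1 lie right of 0 in rapeseed against pear, and DnaJC22, drawn as an arrow at the edge with its value, lies at -4.23 and -4.33 against non-pollen. On library totals alone, points of both non-pollen panels move right by about the 0.47 and 0.53 of all genes, which turns Hsc70-3, Hsp60A, Hsp10, Hsp75, CCT eta and DnaJC13 to the right of 0 in both panels, Hsp83 and T-complex protein 11-like protein 1 in the rapeseed panel and Hsp90 and DnaJC24-like in the pear panel, among others.

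The cytosolic Hsp70 genes were all higher in the rapeseed libraries than in both other groups. Hsc70-4 (LOC107994859), the constitutive cytosolic Hsp70, lies on scaffold NW_016018566.1, 3624895 to 3629233, plus strand. It had 8127, 8249 and 8109 CPM in rapeseed, 5932.5, 6181.5 and 6445 in pear and 5901, 5698 and 5771 in non-pollen. The rapeseed libraries stood above all others, while the pear and non-pollen libraries lay next to each other. Its log2 fold change was 0.40 ± 0.0336 (SE) in rapeseed against pear (adjusted p = 1.72e-08, edgeR) and 0.50 ± 0.0336 in rapeseed against non-pollen (adjusted p = 4.41e-11, edgeR). In pear against non-pollen it was 0.10 ± 0.0336 (adjusted p = 0.0204, edgeR), and this call was lost without non-pollen 2, non-pollen 3, pear 2 or pear 3 (0.06 to 0.10, adjusted p 0.0589 to 0.0687).

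Its paralog in the same table, Hsc70-4-like (LOC107996313) lies on scaffold NW_016019075.1, 592909 to 596438, plus strand. It had 3156, 3221 and 3179 CPM in rapeseed, 1639.5, 1726 and 1785.5 in pear and 1604, 1504 and 1522 in non-pollen. The rapeseed values were 1.85 times the pear values and 2.06 times the non-pollen values. These were log2 fold changes of 0.89 ± 0.0352 (adjusted p = 4.98e-14, edgeR) and 1.05 ± 0.0354 (adjusted p = 3.61e-16, edgeR). Pear was higher than non-pollen by 0.15 ± 0.035 (adjusted p = 0.000839, edgeR), and the 3 groups did not overlap. The ratio of this pair of genes within a library does not change with the scaling of libraries. On the log2 scale, Hsc70-4-like over Hsc70-4 averaged -1.36 ± 0.00686 in rapeseed, -1.85 ± 0.00796 in pear and -1.91 ± 0.0247 in non-pollen (SD, n = 3 each). Rapeseed exceeded pear in this ratio by 0.49. Genes of similar sequence can share reads, but the sequences of this pair were not compared. The treatment of reads that match several genes is not stated. Ratios are given as values only, since 3 libraries against 3 cannot give an exact permutation p below 0.1.

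Hsp70 member 4 (LOC107996782), whose mammalian counterpart is an Hsp110-type exchange factor for Hsp70, lies on scaffold NW_016019108.1, 4765205 to 4771469, plus strand. It had 335, 330.0 and 331 CPM in rapeseed, 262, 263 and 266 in pear and 225, 240.4 and 238.5 in non-pollen. The order was again rapeseed, pear, non-pollen, with no overlap. Rapeseed was higher than pear by 0.33 ± 0.0338 and than non-pollen by 0.50 ± 0.034 on the log2 scale (adjusted p = 3.01e-07 and 4.5e-11, edgeR). Pear was higher than non-pollen by 0.17 ± 0.0341 (adjusted p = 0.000292, edgeR).

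The table describes a pair of cytosolic Hsp90 genes, which behaved differently. Hsp90 (LOC107999366) lies on scaffold NW_016019330.1, 4291506 to 4294694, minus strand. It had 5919, 6011 and 5952 CPM in rapeseed, 3871.5, 3881 and 3894 in pear and 4226, 3938 and 3939 in non-pollen. It was higher in rapeseed than in pear by 0.62 ± 0.0326 and than in non-pollen by 0.56 ± 0.0326 (adjusted p = 7.77e-12 and 3.15e-12, edgeR). In pear against non-pollen its difference was -0.06 ± 0.0325 (adjusted p = 0.155, edgeR), which did not pass. It was called at -0.07 with scaling that left out the gland genes and in the other direction, at 0.48, on library totals alone.

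Hsp83 (LOC107992942), which carries the name of the single cytosolic Hsp90 of *Drosophila*, lies on scaffold NW_016017945.1, 116677 to 119657, minus strand. It had 327, 316.5 and 322 CPM in rapeseed, 164, 169 and 162 in pear and 352, 369 and 348.5 in non-pollen. The pear libraries stood apart below both other groups. Hsp83 was 1.95 times as high in rapeseed as in pear (log2 fold change 0.96 ± 0.0349, adjusted p = 1.09e-14, edgeR), and 2.16-fold lower in pear than in non-pollen (-1.11 ± 0.035, adjusted p = 1.27e-16, edgeR). The small difference of -0.15 ± 0.0343 in rapeseed against non-pollen (adjusted p = 0.000904, edgeR) turned to 0.34 on library totals alone. Within a library, the log2 ratio of Hsp83 to Hsp90 counts averaged -4.21 ± 0.0339 in rapeseed, -4.56 ± 0.0333 in pear and -3.50 ± 0.0839 in non-pollen (SD, n = 3 each). Per length, Hsp90 was the far more abundant gene of the pair, with 2264 ± 12.7 FPKM against 138 ± 2.47 FPKM for Hsp83 in the rapeseed libraries (SD, n = 3).

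**Figure D2:**
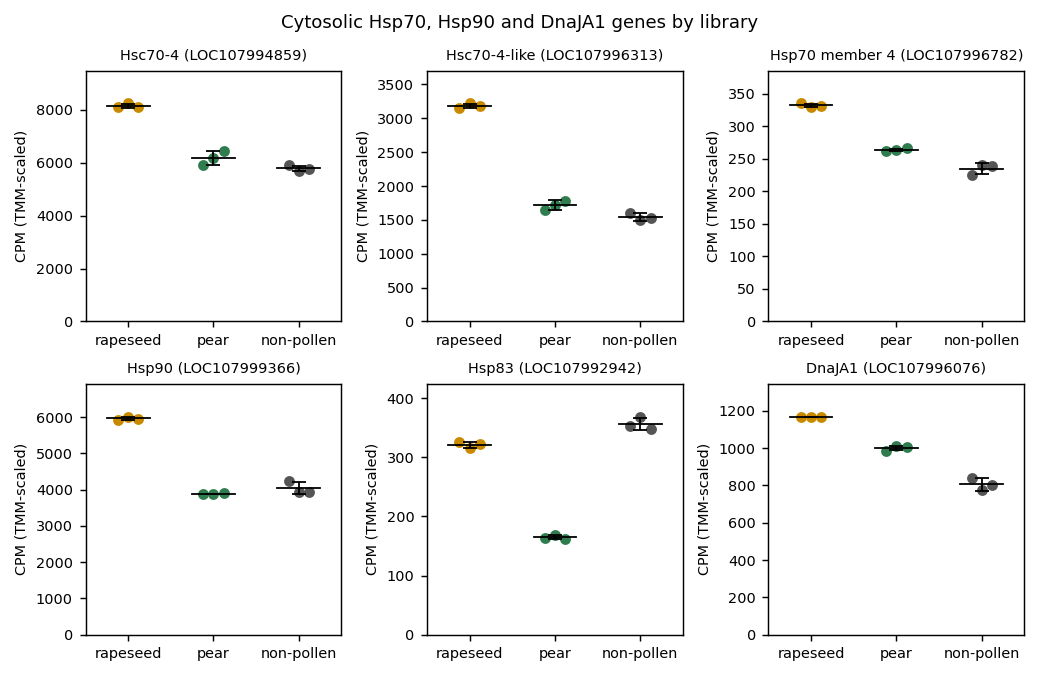
TMM-scaled CPM (y axis, from 0) in each library of 6 cytosolic chaperone genes, with rapeseed, pear and non-pollen from left to right; points are libraries, the line is the mean of 3 and the bar its SD. Rapeseed libraries are highest in every panel except that of Hsp83, where the pear libraries are at 162 to 169 CPM and the non-pollen libraries at 349 to 369 CPM; on library totals alone Hsp83 was higher in rapeseed than in non-pollen (0.34, log2).

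DnaJA1 (LOC107996076; scaffold NW_016019053.1, 1483892 to 1487957, plus strand), a cytosolic partner of Hsp70 and the DnaJ gene with the highest FPKM, was higher in rapeseed in the same way. It had 1168, 1168.5 and 1167 CPM in rapeseed, 987, 1009 and 1006 in pear and 842, 775 and 802 in non-pollen. The 3 groups were separate and in the order rapeseed, pear, non-pollen. Rapeseed was higher than pear by 0.22 ± 0.0328 and than non-pollen by 0.53 ± 0.0329, and pear than non-pollen by 0.31 ± 0.0329 on the log2 scale (adjusted p = 4.77e-05, 8.73e-12 and 6.01e-08, edgeR).

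A gene described only as small heat shock protein (LOC107996027; scaffold NW_016019023.1, 59443 to 60334, minus strand) met the rule through the words heat shock, although small heat shock proteins are a family of their own that hold unfolded proteins without ATP. It had 3243, 3308 and 3265 CPM in rapeseed, 1600.0, 1669.9 and 1752 in pear and 1461, 1387 and 1387 in non-pollen. The rapeseed libraries were 1.95 times the pear libraries (log2 fold change 0.97 ± 0.0352, adjusted p = 1.11e-14, edgeR) and 2.32 times the non-pollen libraries (1.21 ± 0.0354, adjusted p = 3.01e-17, edgeR). Pear was higher than non-pollen by 0.25 ± 0.035 (adjusted p = 4.22e-06, edgeR). Per length it was the highest member in the rapeseed libraries, at 3918 ± 30.7 FPKM against 3559.9 ± 27.2 for Hsc70-4, but it lay below Hsc70-4 in the pear libraries (2065 ± 50.4 against 2780.3 ± 57 FPKM) and in the non-pollen libraries (1192 ± 13.6 against 1781 ± 7.95 FPKM; SD, n = 3 each).

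All 5 co-chaperones were called higher in rapeseed and in pear than in non-pollen, beside 29.3% and 28.5% of all genes tested. In 3 of 5, both Cdc37 copies and the heat shock protein ATPase activator, rapeseed was also called above pear, beside 7.94% of all genes. Cdc37, which loads kinases onto Hsp90, is present as a pair of genes with 1 description, LOC107999086 at the very start of its scaffold (scaffold NW_016019312.1, 343 to 2834, plus strand) and LOC107996686 (scaffold NW_016019108.1, 1878857 to 1881346, minus strand). LOC107999086 had 64.2, 64.9 and 65.3 CPM in rapeseed, 54.4, 53.5 and 53.2 in pear and 47.7, 39.9 and 36.5 in non-pollen. LOC107996686 had 62.5, 63.8 and 63.6 CPM in rapeseed, 53.2, 51.9 and 52 in pear and 38.4, 48.8 and 51.1 in non-pollen. Among the non-pollen libraries the copies were high and low in opposite libraries, so their sum was examined as well.

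Summed, the Cdc37 copies had 127, 129 and 129 CPM in rapeseed, 108, 105 and 105 in pear and 86.1, 88.7 and 87.6 in non-pollen. The sum varied far less within a group than either copy did in non-pollen. Summing was chosen after the values had been seen. The log2 fold change of the sum was 0.27 ± 0.0382 in rapeseed against pear, 0.55 ± 0.0387 in rapeseed against non-pollen and 0.28 ± 0.0388 in pear against non-pollen (adjusted p = 2.6e-05, 6.94e-11 and 3.1e-06, edgeR). Of the single copies, the call of LOC107996686 in pear against non-pollen (0.18 ± 0.0725, adjusted p = 0.0416, edgeR) was lost when any of non-pollen 1, pear 1, pear 2, pear 3, rapeseed 1 or rapeseed 3 was left out (0.07 to 0.19, adjusted p 0.0517 to 0.295), and its call in rapeseed against pear without pear 2 (0.27, adjusted p = 0.0557).

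The heat shock protein ATPase activator (LOC107999938), the kind of protein that speeds up the ATP cycle of Hsp90 in other species, lies on scaffold NW_016019397.1, 689915 to 720766, minus strand. It had 163, 158 and 154.5 CPM in rapeseed, 146, 146 and 147 in pear and 115, 115 and 111 in non-pollen. Both pollen groups lay above non-pollen, by 0.48 ± 0.0379 in rapeseed and 0.36 ± 0.038 in pear on the log2 scale (adjusted p = 5.88e-10 and 5.56e-08, edgeR). Its call in rapeseed against pear (0.11 ± 0.0374, adjusted p = 0.048, edgeR) was lost without any 1 of the 6 pollen libraries or without non-pollen 2 (0.09 to 0.13, adjusted p 0.0519 to 0.217). BAG2 (LOC108002547), an exchange factor of Hsp70 in mammals, averaged 34.5 ± 0.657 CPM in rapeseed, 35.4 ± 3.19 in pear and 29.0 ± 1.62 in non-pollen (SD, n = 3 each), and Hsp70-binding protein 1 (LOC107993681) 74.4 ± 1.45, 76.0 ± 1.69 and 65.2 ± 7.79 CPM in the same order. Neither differed between rapeseed and pear by the test (log2 fold changes -0.04 and -0.03). The rapeseed and non-pollen libraries of Hsp70-binding protein 1 overlapped, with rapeseed 1 at 73.4 CPM and non-pollen 1 at 74.2 CPM.

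**Figure D3:**
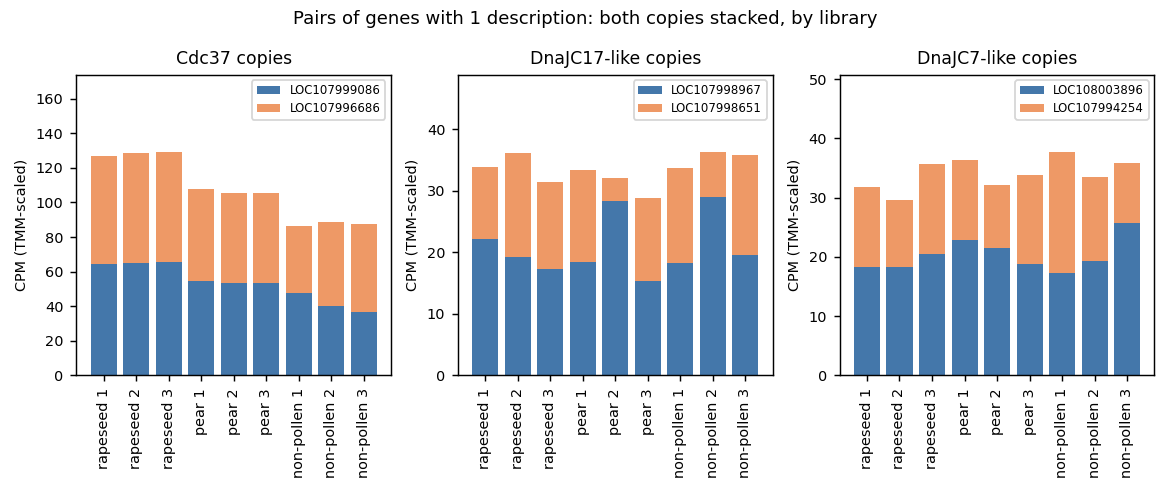
TMM-scaled CPM (y axis) of the copies of Cdc37, DnaJC17-like and DnaJC7-like, stacked, in each of the 9 libraries (x axis, rapeseed, pear, non-pollen). The Cdc37 bars stand at 127 to 129 CPM in rapeseed, 105 to 108 CPM in pear and 86.1 to 88.7 CPM in non-pollen, while the split between its copies varies mainly among the non-pollen libraries; in the other panels the split varies from library to library.

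For 3 chaperones of the ER lumen the direction against non-pollen was the opposite one with TMM scaling. Hsc70-3 (LOC107997049), the ER Hsp70 known as BiP, lies on scaffold NW_016019120.1, 1329427 to 1332388, minus strand. It had 1019, 1011 and 997 CPM in rapeseed, 911, 922 and 928 in pear and 1209, 1159 and 1145 in non-pollen. Endoplasmin (LOC108003910), the ER Hsp90, lies on scaffold NW_016017634.1, 330237 to 333474, minus strand. It had 338, 331.5 and 339.6 CPM in rapeseed, 330.4, 336 and 322 in pear and 531, 474 and 471 in non-pollen. DnaJB11 (LOC108000047), a soluble ER partner of BiP in mammals, lies on scaffold NW_016019397.1, 300997 to 303115, plus strand. It had 79, 82.2 and 75.9 CPM in rapeseed, 82.4, 80.2 and 83 in pear and 132, 126.5 and 117 in non-pollen. In all 3 genes every rapeseed and pear library lay below every non-pollen library on this scale. Of all 9259 genes tested, 2992 lay wholly below non-pollen in rapeseed and 2685 in pear. Between the pollen groups Hsc70-3 was higher in rapeseed than in pear (0.13 ± 0.0309, adjusted p = 0.00562, edgeR), the direction of the cytosolic Hsp70 genes, and the ER membrane gene DnaJB12, given with the other DnaJ genes, was higher in both pollen groups than in non-pollen.

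In rapeseed against non-pollen the log2 fold change was -0.22 ± 0.0309 for Hsc70-3, -0.55 ± 0.04 for endoplasmin and -0.66 ± 0.0482 for DnaJB11 (adjusted p = 4.32e-06, 1.46e-10 and 1.38e-10, edgeR). That of pear against non-pollen was -0.35 ± 0.031, -0.58 ± 0.0401 and -0.61 ± 0.0482 in the same order (adjusted p = 4.39e-09, 7.21e-11 and 5.97e-10, edgeR). How far these calls hold depends on the scaling: on library totals alone, Hsc70-3 was higher in rapeseed (0.28) and in pear (0.19) than in non-pollen, and endoplasmin (-0.05 and -0.04) was not called. On the same scale DnaJB11 stayed lower in rapeseed (-0.17, adjusted p = 0.00304, edgeR) and was not called in pear (-0.08). Set against the summed counts of the 8 CCT genes of the same library, which no scaling can change, the log2 ratio of endoplasmin averaged -2.54 ± 0.0242 in rapeseed, -2.51 ± 0.0565 in pear and -1.81 ± 0.0335 in non-pollen, and that of Hsc70-3 -0.96 ± 0.0185, -1.03 ± 0.0248 and -0.56 ± 0.0251 (SD, n = 3 each). Both ratios were lower in every pollen library than in every non-pollen library. The CCT genes were themselves higher than in non-pollen, with median log2 fold changes of 0.17 in rapeseed and 0.12 in pear. On library totals alone these medians were 0.66 and 0.65. The ratios therefore cannot tell lower ER genes from higher CCT genes. The summed share of the gland markers given above, at 37.1 to 37.6% of counts in non-pollen, was also highest in that group. Between the pollen groups this share was lower in rapeseed than in pear, whereas Hsc70-3 was higher in rapeseed. Singly, of 23 tested gland markers 8 were higher and 11 lower in rapeseed, and 7 higher and 13 lower in pear, than in non-pollen. The part of these markers in the difference was not tested.

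A pair of genes described only as DnaJ subfamily C member moved with the ER genes. LOC108001673 had 93.1, 99.4 and 94.6 CPM in rapeseed, 91.9, 98.1 and 95.8 in pear and 149.7, 143 and 138 in non-pollen. LOC108001498 had 62, 59.1 and 59.7 CPM in rapeseed, 65.7, 67.3 and 67 in pear and 108, 98.7 and 91.7 in non-pollen. Both were lower in rapeseed than in non-pollen (-0.59 ± 0.0439 and -0.72 ± 0.0523, adjusted p = 2.24e-10 and 1.33e-10, edgeR) and in pear than in non-pollen (-0.59 ± 0.044 and -0.57 ± 0.0522, adjusted p = 2.27e-10 and 5.94e-09, edgeR). On library totals alone both stayed lower in rapeseed (-0.09 and -0.23, adjusted p = 0.0466 and 0.000441, edgeR), and the pear values were -0.06 and -0.04, of which neither was called. Of ER genes outside the rule (calreticulin, protein disulfide isomerases and others, 7 in the list), 0 were higher and 6 lower in both rapeseed and pear against non-pollen. Their medians were -0.59 and -0.40, and 30% and 27.2% of all genes tested were called lower. On library totals alone 1 of the 7 was higher and 3 lower in rapeseed, and 4 higher and 3 lower in pear, than in non-pollen. Hypoxia up-regulated protein 1 (LOC107993615), the ER exchange factor of the Hsp110 type, was also lower, with log2 fold changes of -0.85 ± 0.0366 in rapeseed and -0.72 ± 0.0365 in pear (adjusted p = 2.2e-14 and 4.09e-13, edgeR).

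The mitochondrial chaperones split. The Hsp70 of the matrix, Hsc70-5 (LOC107992413) lies on scaffold NW_016017801.1, 418423 to 423352, minus strand. It had 818, 826 and 812 CPM in rapeseed, 747, 758 and 739.6 in pear and 699, 668 and 675.5 in non-pollen. It was higher in rapeseed than in pear by 0.13 ± 0.0305 and than in non-pollen by 0.27 ± 0.0306, and in pear than in non-pollen by 0.14 ± 0.0306 (adjusted p = 0.00562, 1.84e-07 and 0.000753, edgeR). The mitochondrial Hsp90, Hsp75 (LOC107994135) lies on scaffold NW_016018344.1, 747271 to 751326, minus strand. It averaged 92.3 ± 3.07 CPM in rapeseed, 95.0 ± 3.73 in pear and 97.0 ± 2.61 in non-pollen (SD, n = 3 each). The groups overlapped, and none of its comparisons passed with TMM (-0.04, -0.07 and -0.03 in the order rapeseed against pear, rapeseed against non-pollen, pear against non-pollen), whereas on library totals alone it was higher in rapeseed (0.42) and in pear (0.50) than in non-pollen.

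The chaperonin genes Hsp60A (LOC108000480; scaffold NW_016019441.1, 460935 to 464733, plus strand) and Hsp10 (LOC108000341; scaffold NW_016019441.1, 458335 to 459799, minus strand) lie on opposite strands with their starts facing each other, 1135 bp apart. Hsp60A had 279, 288 and 288 CPM in rapeseed, 228, 234 and 238 in pear and 343, 325 and 342 in non-pollen. Hsp10, the lid of the Hsp60 ring, had 41.5, 41.3 and 41.9 CPM in rapeseed, 38.7, 39.8 and 33.5 in pear and 49.3, 53.1 and 48.4 in non-pollen. In both genes the non-pollen libraries were highest and the pear libraries lowest. Both were lower than in non-pollen. The log2 fold change of Hsp60A was -0.24 ± 0.0345 in rapeseed and -0.53 ± 0.0347 in pear (adjusted p = 4.7e-06 and 2.99e-11, edgeR), and that of Hsp10 -0.28 ± 0.0652 and -0.43 ± 0.0656 (adjusted p = 0.00112 and 1.02e-05, edgeR). Rapeseed against pear was 0.29 ± 0.0346 for Hsp60A (adjusted p = 3.05e-06, edgeR) and 0.16 ± 0.0654 for Hsp10 (adjusted p = 0.138, edgeR), and the value of Hsp10 did not pass. On library totals alone both genes turned positive against non-pollen, to 0.25 in rapeseed and 0.0058 in pear for Hsp60A and to 0.22 and 0.11 for Hsp10, where the pear values were not called. The log2 ratio of Hsp60A to the CCT genes differed from non-pollen by -0.42 in rapeseed and -0.65 in pear. The CCT genes had medians of 0.66 in rapeseed and 0.65 in pear on library totals alone. This ratio therefore cannot tell a lower Hsp60A from higher CCT genes.

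**Figure D4:**
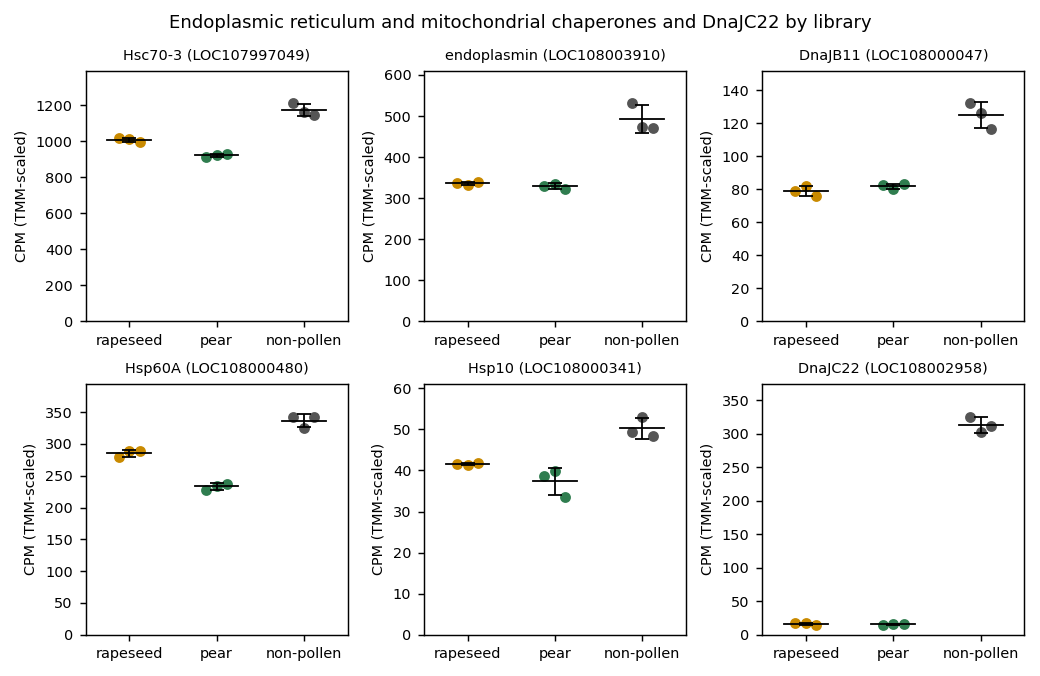
TMM-scaled CPM (y axis, from 0) in each library of 3 ER chaperone genes, Hsp60A, Hsp10 and DnaJC22, with rapeseed, pear and non-pollen from left to right; points are libraries, the line is the mean of 3 and the bar its SD. Non-pollen libraries are highest in all 6 panels, but on library totals alone Hsc70-3 was higher in both pollen groups and Hsp60A and Hsp10 in rapeseed, with no call for the last 2 genes in pear; DnaJC22 is at 14.6 to 17.7 CPM in the pollen groups and 302 to 326 CPM in non-pollen.

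The 8 CCT subunits, which are built into 1 ring, differed little between groups with TMM scaling. On library totals alone all 8 were higher in rapeseed and in pear than in non-pollen, with medians of 0.66 and 0.65. With TMM, 7 of 8 were higher in rapeseed against non-pollen, beside 29.3% of all genes tested. Their log2 fold changes were 0.38 for gamma, 0.26 for epsilon, 0.21 for delta, 0.17 for zeta, 0.16 for alpha and 0.11 for both beta and theta. In pear against non-pollen 6 of 8 were higher, beside 28.5% of all genes tested. These were gamma (0.24), epsilon (0.17), delta (0.13), alpha (0.12), theta (0.11) and beta (0.10), and zeta was at 0.08 (adjusted p = 0.0535, edgeR). Eta was at -0.06 and -0.04 and passed in neither, but was called higher on library totals alone (0.43 in rapeseed and 0.50 in pear).

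CCT gamma (LOC107992556; scaffold NW_016017855.1, 2400 to 4933, minus strand) was the subunit with the greatest difference. It had 267, 281 and 276.5 CPM in rapeseed, 245, 249.5 and 257.5 in pear and 229, 205 and 201 in non-pollen. It was the only subunit called in rapeseed against pear (0.13 ± 0.0427, adjusted p = 0.0443, edgeR), and that call was lost without pear 1, pear 2 or any 1 of the rapeseed libraries (0.12 to 0.15, adjusted p 0.0578 to 0.17) and under a replicate block (0.13, adjusted p = 0.0701). Several small calls also rested on single libraries. CCT beta (LOC108001653) lost its call in rapeseed without non-pollen 2, rapeseed 1 or rapeseed 2 (0.06 to 0.11) and in pear without non-pollen 2, pear 2, pear 3 or any 1 rapeseed library (0.06 to 0.12). CCT theta (LOC108000450) lost its call in rapeseed without non-pollen 2, non-pollen 3 or rapeseed 1 and in pear without non-pollen 2 or non-pollen 3, each at 0.09. CCT alpha (LOC107994638) lost its call in pear without pear 3 (0.09). The CCT genes together held 0.217% ± 0.000657 of all counts in rapeseed, 0.214% ± 0.004 in pear and 0.136% ± 0.00374 in non-pollen (SD, n = 3 each). In TMM-scaled CPM their sums averaged 1960.3, 1879 and 1724.7 in the same order.

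**Figure D5:**
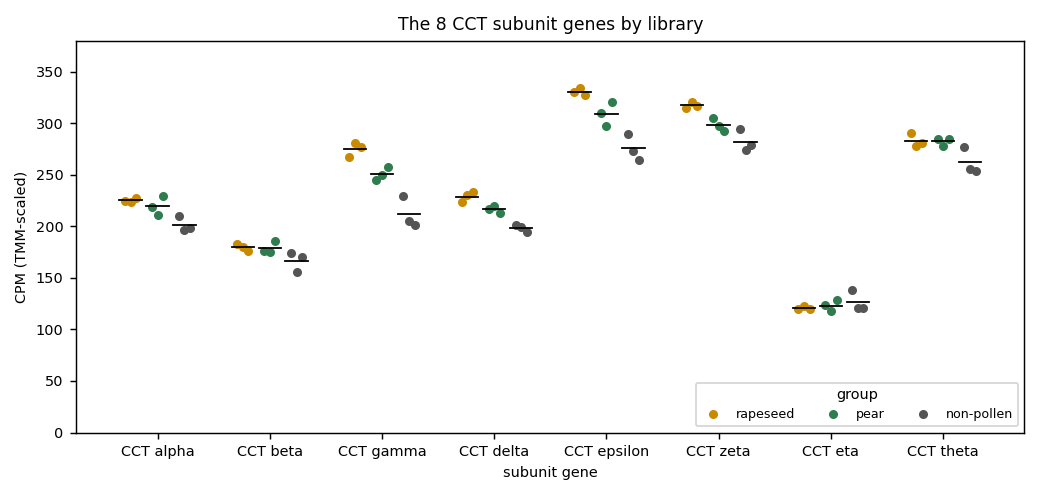
TMM-scaled CPM (y axis, from 0) of the 8 CCT subunit genes (x axis) in each library, with rapeseed, pear and non-pollen from left to right within a gene; the line is the mean of 3 libraries. CCT gamma is at 267 to 281 CPM in rapeseed and 201 to 229 in non-pollen, and CCT eta, at 118 to 138 CPM over all libraries, shows overlapping groups; on library totals alone eta was higher in both pollen groups.

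Among the 25 DnaJ genes, 23 were tested. In rapeseed against pear 1 was higher and 1 lower (4.35% each, beside 7.94% and 4.96% of all genes tested). In rapeseed against non-pollen 3 were higher and 6 lower (13.0% and 26.1%, beside 29.3% and 30% of all genes). In pear against non-pollen 5 were higher and 6 lower (21.7% and 26.1%, beside 28.5% and 27.2%). None of these shares stood above that of all genes. On library totals alone 14 were higher and 4 lower in rapeseed, and 16 higher and 1 lower in pear, than in non-pollen. DnaJC22 (LOC108002958; scaffold NW_016019775.1, 158256 to 161054, plus strand), whose *Drosophila* counterpart wurst acts in endocytosis in the airways, showed the greatest change of any member. It had 17.7, 17.4 and 14.8 CPM in rapeseed, 14.6, 16.3 and 15.7 in pear and 325.5, 302 and 312 in non-pollen. The pollen groups overlapped each other and lay far below non-pollen, 18.8-fold lower in rapeseed and 20.1-fold lower in pear (log2 fold changes -4.23 ± 0.0606 and -4.33 ± 0.0613, adjusted p = 1.1e-22 and 1e-22, edgeR). Its log2 ratio to the CCT genes differed from non-pollen by a similar amount, -4.42 in rapeseed and -4.46 in pear. The summed gland and photoreceptor markers took a smaller share of counts in the same libraries. Of 23 tested gland markers 8 were higher and 11 lower in rapeseed, and 7 higher and 13 lower in pear, than in non-pollen. Of 9 tested photoreceptor markers 0 were higher and 7 lower in rapeseed, and 1 higher and 7 lower in pear. Their part in the difference of DnaJC22 was not tested.

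DnaJB6 (LOC108002258), which keeps proteins from aggregating in mammals, lies on scaffold NW_016019666.1, 1 to 5655, minus strand. It had 225, 226 and 235 CPM in rapeseed, 220.3, 227 and 234 in pear and 181, 175.5 and 184 in non-pollen. It was higher than in non-pollen by 0.34 ± 0.0366 in rapeseed and 0.33 ± 0.0366 in pear (adjusted p = 6.17e-08 and 1.03e-07, edgeR), and the pollen groups overlapped. DnaJC28 (LOC108001060) had 78.9, 71.9 and 77 CPM in rapeseed, 85.9, 89.4 and 86.3 in pear and 73.9, 70.8 and 78.2 in non-pollen. It was the only member lower in rapeseed than in pear (-0.20 ± 0.0486, adjusted p = 0.00761, edgeR), a call lost without pear 2 or rapeseed 2 (-0.18 and -0.16, adjusted p = 0.0512 and 0.063), and it was higher in pear than in non-pollen by 0.23 ± 0.049 (adjusted p = 0.000427, edgeR).

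DnaJB12 (LOC108000381), an ER membrane DnaJ in mammals, was higher by 0.13 ± 0.0379 in rapeseed and 0.10 ± 0.0379 in pear than in non-pollen (adjusted p = 0.00469 and 0.0309, edgeR); the pear call was lost without non-pollen 2, non-pollen 3, pear 1 or pear 2 (0.08 to 0.09). DnaJC2 (LOC107992504), which in mammals sits at the ribosome, was higher in pear than in non-pollen by 0.25 ± 0.0836 (adjusted p = 0.0143, edgeR), a call lost without non-pollen 2 or pear 3 (0.20 and 0.23). Lower in both pollen groups were also DnaJC13 (LOC108001386), an endosomal protein in other animals, with -0.40 ± 0.0922 in rapeseed and -0.30 ± 0.0922 in pear, and DnaJC24-like (LOC107997610), whose yeast and human counterparts act in diphthamide synthesis, with -0.59 ± 0.0957 and -0.41 ± 0.0954 on the log2 scale. These calls depend on the scaling, since on library totals alone DnaJC13 stood at 0.09 in rapeseed and 0.23 in pear and DnaJC24-like at -0.10 and 0.12. The remaining tested DnaJ genes passed in none of the 3 comparisons. Among them DnaJC5-like (LOC107997454), the cysteine string protein of synaptic vesicles in *Drosophila*, averaged 32.0 ± 2.13 CPM in rapeseed, 33.1 ± 1.29 in pear and 30.5 ± 2.72 in non-pollen (SD, n = 3 each).

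The DnaJC17-like genes (LOC107998967 and LOC107998651, neighbours on scaffold NW_016017479.1) and the DnaJC7-like genes (LOC108003896 and LOC107994254) were pairs with 1 description, like Cdc37. LOC107998651 had 11.8, 16.8 and 14.2 CPM in rapeseed, 14.9, 3.79 and 13.4 in pear and 15.4, 7.25 and 16.3 in non-pollen. LOC107998967 had 22.1, 19.3 and 17.3 CPM in rapeseed, 18.5, 28.3 and 15.4 in pear and 18.3, 29 and 19.5 in non-pollen. The copies mirrored each other, with pear 2 and non-pollen 2 low in the first and high in the second, and their sum lay between 28.8 and 36.3 CPM in all 9 libraries. The first copy named held 53.4 to 88.2% of the pair in DnaJC17-like and 45.8 to 71.6% in DnaJC7-like, whose sum lay between 29.6 and 37.6 CPM. Neither sum was called in any comparison, with log2 fold changes from -0.17 to 0.10.

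The 3 members that did not pass the filter were DnaJB13-like (LOC107995408), at 0 to 0.253 CPM, a second DnaJC11 gene (LOC114578031), at 0 in 8 libraries and 0.0819 CPM in non-pollen 3, and heat shock transcription factor, Y-linked-like (LOC107994746), at 0.221 to 1.2 CPM. Differences between groups were not tested for these 3. In the last of them the pear libraries, at 0.719 to 0.8 CPM, lay above the non-pollen libraries, at 0.253 to 0.573 CPM, and the rapeseed libraries spanned both. Of the other genes that met the rule only by a word, T-complex protein 11-like protein 1 (LOC107994938) averaged 51.2 ± 3.21 CPM in rapeseed, 52.4 ± 0.62 in pear and 56.7 ± 1.06 in non-pollen (SD, n = 3 each), and was lower in rapeseed than in non-pollen (log2 fold change -0.15 ± 0.053, adjusted p = 0.0222, edgeR), which turned to 0.35 on library totals alone. Hsp67B2-like (LOC107997709) was at 2.89 to 4.09 CPM and passed in none.

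As a share of all counts, the 53 members together held 3.15% ± 0.0156 in rapeseed, 2.36% ± 0.00366 in pear and 1.62% ± 0.0185 in non-pollen (SD, n = 3 each). In TMM-scaled CPM, which sets aside the counts taken by the gland genes, the sums averaged 28480.3, 20670.5 and 20557 CPM in the same order. The rapeseed libraries stood apart on both scales, and pear stood above non-pollen only as a share of counts. The 5 Hsp70 genes made up 1.5% ± 0.0108, 1.12% ± 0.0152 and 0.741% ± 0.00223 of all counts, and the 4 Hsp90 genes 0.743% ± 0.00262, 0.51% ± 0.0104 and 0.392% ± 0.00897. In TMM-scaled CPM the Hsp70 sums averaged 13506.7, 9835.6 and 9420.4, and the Hsp90 sums 6711.1, 4471.2 and 4980.0, in the same order. On that scale the Hsp90 sum was lower in pear than in non-pollen, the reverse of the order by share.

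Other genes of protein folding outside the rule came from a list of 45, all of which passed the filter. For comparison with the counts below, 29.3% of all genes tested were called higher and 30% lower in rapeseed against non-pollen. In pear against non-pollen these shares were 28.5% and 27.2%, and in rapeseed against pear 7.94% and 4.96%. Of the 8 small heat shock genes in the list, rapeseed was above non-pollen in 8 and above pear in 7, with medians of 0.69 and 0.97, whereas in pear against non-pollen 3 were higher and 3 lower (7 and 1 on library totals alone). Alpha-crystallin A chain-like (LOC107994022), like Hsp83, was low in pear, with 552 ± 14.1 CPM in rapeseed, 143 ± 1.57 in pear and 416 ± 16.5 in non-pollen (SD, n = 3 each). Among 12 adaptors of Hsp70 and Hsp90, a list that through its p23 pattern also holds UTP23, ATP23 and an uncharacterized protein, 7 were higher and 3 lower in rapeseed against non-pollen, 6 higher and 3 lower in pear against non-pollen, and 3 higher and 0 lower in rapeseed against pear, while on library totals alone the counts against non-pollen were 10 and 0 in rapeseed and 9 and 0 in pear. Stress-induced-phosphoprotein 1-like (LOC108001952), which hands clients between Hsp70 and Hsp90, was higher in rapeseed than in pear by 0.31 ± 0.0362 and than in non-pollen by 0.47 ± 0.0364, and the Hsp90-binding FK506-binding protein 59-like (LOC107994986) by 0.35 ± 0.0352 and 0.37 ± 0.0353 (adjusted p = 2.01e-06, 3.42e-10, 2.5e-07 and 1.1e-08 in that order, edgeR). Protein unc-45 homolog B (LOC107993955), the myosin chaperone that works with Hsp90, was higher than in non-pollen by 0.84 ± 0.0345 in rapeseed and 0.70 ± 0.0345 in pear (adjusted p = 1.09e-14 and 2.48e-13, edgeR). The summed muscle markers were also a larger share of counts in these libraries. With TMM, of 25 tested muscle markers 19 were higher and 5 lower in rapeseed, and 19 higher and 4 lower in pear, than in non-pollen. The part of the muscle markers was not tested.

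Heat shock factor protein 1-like (LOC107993102), the transcription factor of heat shock genes, averaged 90.8 ± 2.39 CPM in rapeseed, 94.0 ± 5.09 in pear and 81.4 ± 2.33 in non-pollen (SD, n = 3 each). It was higher than in non-pollen by 0.16 ± 0.0466 in rapeseed and 0.21 ± 0.0466 in pear (adjusted p = 0.00634 and 0.000733, edgeR) and did not pass in rapeseed against pear (-0.05 ± 0.0461, adjusted p = 0.568, edgeR). Of 7 prefoldin and phosducin-like partners of CCT, 0 were higher and 4 lower in rapeseed against non-pollen, and 1 higher and 1 lower in pear against non-pollen, but on library totals alone 6 were higher in rapeseed and 7 in pear and 0 lower. Of 7 genes of mitochondrial quality control, a list that holds an uncharacterized protein, 5 were higher in both rapeseed and pear against non-pollen and 0 lower. Beside both lists, 29.3% of all genes tested were called higher and 30% lower in rapeseed, and 28.5% and 27.2% in pear, against non-pollen. On library totals alone all 7 genes of mitochondrial quality control were higher in both pollen groups.

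The genes whose levels ran most like the cytosolic pair with the highest FPKM were sought by Pearson's r of log2(CPM + 1) over the 9 libraries, given as a description with no p, since the libraries of a group share their condition. For Hsc70-4 (LOC107994859) the 5 nearest genes outside the members were NAD kinase (r = 0.996), cytochrome P450 9e2-like (0.993), solute carrier family 41 member 1-like (0.993), putative glycerol kinase 5 (0.993) and protein lethal(2)essential for life-like LOC108003645 (0.991). For Hsp90 (LOC107999366) they were the lethal(2)essential for life-like genes LOC107996022 (0.993), LOC107996023 (0.992) and LOC107996025 (0.986), protein THEM6 (0.990) and dnaJ protein homolog 1 (0.988), which the rule left out by its identifier LOC107996590.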

How the data were processed

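Proboscis RNA-seq of 9 libraries was used. Per the labels, poly(A) RNA was made into strand-marking, paired-end libraries. For each gene the authors deposited raw counts (whole numbers) beside FPKM, which divides counts by gene length and depth. Tools in the submitters' processing notes were HISAT2 2.2.1, StringTie 2.1.6, cutadapt 1.9, edgeR and DESeq2, with no settings. Build, strand use and handling of multi-mapping reads: not given in the sources used here. The paper supplied covers another experiment. Of 53 identifiers, 49 are in a RefSeq table of AcerK_1.0, used for names only.

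The 9259 genes reaching an FPKM of 1 in 3 or more libraries were tested on the deposited counts with edgeR 4.0.16 in R 4.3.3 (quasi-likelihood F test, TMM, 3 groups in 1 fit, Benjamini-Hochberg, threshold 0.05; two-sided), after a test on simulated data. Standard errors are the log2 fold change over the root of F; the biological coefficient of variation was 7.92%. Counting error adds more for low counts; the lowest of a tested member in a library was 121.

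Members and lists were chosen with earlier results of these data known. Named with values were every Hsp70, Hsp90 and mitochondrial chaperonin gene, the CCT genes, and up to 3 DnaJ, co-chaperone and other folding genes per direction and comparison with the largest called, non-overlapping change; others named were chosen after their values were seen. Alternatives were library totals, RLE, scaling without gland genes, DESeq2 1.42.0, no filter, only the groups compared, a replicate block, limma 3.58.1 on log2(FPKM + 0.1) and log2(FPKM + 1), a test against 1.2-fold, leaving out each library and, added later, summed copies. Sequences were not analysed here.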

Additional observations from a re-analysis of the deposited data

Results flagged for a closer look

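The differences of rapeseed and pear from non-pollen were unlike each other, by the direct test of rapeseed against pear (edgeR's quasi-likelihood test), in 15 members. By the same test 7.94% of all genes tested were called higher and 4.96% lower. The log2 fold changes of rapeseed against pear were 0.97 for the small heat shock protein, 0.96 for Hsp83, 0.89 for Hsc70-4-like, 0.62 for Hsp90, 0.40 for Hsc70-4, 0.33 for Hsp70 member 4, 0.29 for Hsp60A, 0.27 for each Cdc37 copy, 0.22 for DnaJA1, 0.13 for Hsc70-3, Hsc70-5 and CCT gamma, 0.11 for the heat shock protein ATPase activator and -0.20 for DnaJC28. Hsp83 differed from the other cytosolic genes in that pear, not rapeseed, was the group that stood apart. The calls of CCT gamma, the heat shock protein ATPase activator, Cdc37 LOC107996686 and DnaJC28 were lost when certain single libraries were left out, as given above.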

How the results depend on the processing

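With library totals alone, log2(FPKM + 0.1) and log2(FPKM + 1), in that order, members higher and lower numbered 39 and 2, 37 and 2, and 37 and 2 in pear against non-pollen (medians 0.626, 0.636 and 0.6), and 39 and 4, 40 and 3, and 40 and 3 in rapeseed against non-pollen (medians 0.571, 0.572 and 0.531); in rapeseed against pear the lower members numbered 3, 2 and 2 and the medians were -0.03, -0.031 and -0.03. The same 3 settings turned the sign of the following log2 fold changes, each called before or after: in pear against non-pollen, LOC107997049 0.19, 0.20 and 0.20, LOC107999366 0.48, 0.49 and 0.49, LOC107994135 0.50, 0.52 and 0.50, LOC108000480 0.0058, 0.02 and 0.02, LOC108000341 0.11 in all 3, and LOC107999287 0.50, 0.51 and 0.50; in rapeseed against non-pollen, LOC107997049 0.28, 0.29 and 0.29, LOC107992942 0.34, 0.36 and 0.35, LOC107994135 0.42, 0.43 and 0.42, LOC108000480 0.25, 0.26 and 0.26, LOC108000341 0.22, 0.23 and 0.23, and LOC107999287 0.43, 0.44 and 0.43. These settings do not set aside the counts taken by a few genes, and they move all genes by a similar amount. In rapeseed against pear the median was 0.021 with RLE factors, DESeq2 or scaling without gland genes, 0.007 with only the groups compared (2 lower members) and 0.008 with summed copies, a setting chosen after seeing the data; the cause was not tested. Against a fold of 1.2 the counts were 2 higher in pear against non-pollen, 11 higher and 6 lower in rapeseed against non-pollen and 5 higher and 0 lower in rapeseed against pear, a stricter question by construction.

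Leaving out 1 library gave 17 to 21 higher and 11 to 12 lower (median 0.077 to 0.111) in pear against non-pollen, 18 to 22 and 11 to 12 (0.054 to 0.117) in rapeseed against non-pollen, and 11 to 14 and 0 to 2 (0.01 to 0.029) in rapeseed against pear, where 0 were lower without pear 2 or rapeseed 2 and 2 were lower without non-pollen 1 or non-pollen 3. The groups share replicate numbers, but same-numbered libraries did not deviate together over the genes tested (correlations -0.115 to 0.0491). With 3 libraries per group these values cannot exclude a shared day, colony or batch behind the numbers. With the replicate block the counts were 21 and 11, 21 and 12, and 12 and 1. Of 1977 values of named members under the alternatives, 1794 gave the same call, 37 of these being uncalled values of the other sign, 126 were no longer called, 21 became called and 36 changed sign, 0 of them by leaving out a library; of the 36, 15 went from a call to the opposite call, 6 from a call to none and 15 from none to a call.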
